A study of Mus musculus with 4 samples.

Results

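The 9 genes that encode the pore-forming subunits of AMPA and kainate glutamate receptors were followed over 4 spatial transcriptomics sections of mouse brain organoids. They were taken by their symbols: Gria1 to Gria4, whose products are GRIA1, GRIA2, GRIA3 and GRIA4, form the AMPA family of 4 genes, and Grik1 to Grik5, whose products are GRIK1, GRIK2, GRIK3, GRIK4 and GRIK5, form the kainate family of 5 genes. All 9 were listed in every section, among 19783 genes listed in every section and 22218 listed in any. The organoids came from CARLIN/Cas9 embryonic stem cells, a line that carries a lineage-recording barcode and the Cas9 nuclease, and the line, this genotype and the culture steps up to day 9 were common to all groups. Cells were seeded at 5000 per well and embedded in Matrigel, and the maturation medium held 2% B27 supplement without vitamin A. From day 9 the groups received ATRA (all-trans retinoic acid, an agonist of all retinoic acid receptors) at 1 µM, BMS753 (an agonist of receptor alpha) at 1 µM, BMS961+BMS641 (agonists of receptors gamma and beta) at 0.1 µM, or VitaminA, that is 2% B27 with vitamin A. The organoids were 3 months old. Each treatment has 1 section of 1 cell line, several organoids were frozen in a mold, and a section may therefore hold more than a single organoid. With 1 section per treatment no difference between treatments could be tested, so no p-value or standard error is given.

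AMPA and kainate receptors are channels that open when glutamate binds, each built from 4 subunits of its own family, and AMPA receptors carry most of the fast excitatory transmission in the brain. In AMPA receptors an edited GRIA2 subunit keeps calcium from passing through the pore, so the presence of GRIA2 sets a main property of the channel. GRIK1, GRIK2 and GRIK3 can form channels alone, while GRIK4 and GRIK5 need a partner among them and raise the affinity for kainate. In the nervous system both families are found mainly in neurons, and also in some glial cells and their precursors.

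The ATRA section had 593 spots, the BMS753 section 469, the BMS961+BMS641 section 365 and the VitaminA section 552. A spot is a small region of tissue that can hold several cells, so fewer cells with a transcript and less transcript per cell cannot be told apart. The deposited values hold no counts, and the depth in reads is unknown. The lowest positive values of a spot are a run of ties that cannot be told from 0, here called the lowest class, and a gene was counted as seen in a spot when its value lay above that class. The median number of genes seen per spot was 3388 with ATRA, 3330 with BMS753, 4462 with BMS961+BMS641 and 4659 with VitaminA. All 12 neuronal marker genes were seen in at least 1 spot of every section. So were all 6 markers of pluripotent cells and all 6 of mesenchyme, so being seen does not show which tissue was present. The summed level of the neuronal markers was 902 ppm with ATRA, 1198 ppm with BMS753, 1306 ppm with BMS961+BMS641 and 974 ppm with VitaminA. Here ppm is parts per 1000000 of the section's summed signal. A single neuronal marker, Stmn2, made up 533 ppm of the BMS961+BMS641 sum, against 14.3 ppm of that of VitaminA, and 9 of the 12 markers were lower with BMS961+BMS641 than with VitaminA. Of the 8 progenitor markers, Sox1 and Sox2 were not among the genes listed in any section, so nothing is known of their levels. The 6 that were listed were seen in every section.

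Promoter sequence was read for the 6 subunit genes matched in RefSeq (GRCm38.p6), Gria2, Gria4, Grik2, Grik3, Grik4 and Grik5. The window was the 250 bases before each annotated start, and both strands were searched. The window of Gria2 is shown because it alone held a searched motif, and because Gria2 was the subunit gene seen in the fewest spots of every section. Its capitals mark the core of RE1, the element bound by the repressor REST, which restrains neuronal genes outside neurons. The core searched was AGCACC and GGACAG with any 2 bases between them, and it lies here in reverse. The window is chr3:80802836-80803085 of GRCm38.p6, read along the minus strand on which Gria2 is encoded.
Gria2: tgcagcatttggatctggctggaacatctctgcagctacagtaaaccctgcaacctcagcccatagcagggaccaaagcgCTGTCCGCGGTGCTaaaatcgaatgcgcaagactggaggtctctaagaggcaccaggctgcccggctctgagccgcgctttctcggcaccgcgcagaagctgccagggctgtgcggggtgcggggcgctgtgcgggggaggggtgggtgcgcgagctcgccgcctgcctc
Of 32851 windows of this length, 15 held the RE1 core, or 0.0457%. The hexamer AGGTCA, which retinoic acid receptors bind as a repeat, was in 0 of the 6 subunit windows and in 14.0% of all windows. AGGTCA repeated in the same direction with 5 or with 2 bases between the copies was in 0 of the 6 windows, and each spacing was in 0.00913% of all windows. GC content was between 58.8% and 82.0% in the 6 windows, against a median of 52.4% over all windows. A match is a description of the letters, and no match says only that these letters are not in the window.

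Among the AMPA subunit genes, Gria1, Gria2 and Gria4 had their highest level in the VitaminA section, and Gria3 had its highest level with BMS961+BMS641. The level of Gria1, which encodes the subunit known for activity-driven insertion at synapses, was 64.9 ppm with ATRA, 157 ppm with BMS753, 68.9 ppm with BMS961+BMS641 and 178 ppm with VitaminA. It was seen in 59.2%, 74.8%, 75.3% and 86.6% of the spots of these sections in the same order. The VitaminA and BMS753 sections stood above the other pair, and within each pair the quadrants of the sections overlapped.

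Gria2 was low throughout. Its level was 8.17 ppm with ATRA, 16.2 ppm with BMS753, 9.91 ppm with BMS961+BMS641 and 23.2 ppm with VitaminA. It was seen in 17.2% of ATRA spots (95% exact binomial interval 14.2% to 20.5%), in 20.7% of BMS753 spots (17.1% to 24.6%), in 25.5% of BMS961+BMS641 spots (21.1% to 30.3%) and in 35.0% of VitaminA spots (31.0% to 39.1%). These intervals cover counting over spots only. Each section overlapped its neighbour in the order of levels when quadrants were compared, although all ATRA and all BMS961+BMS641 quadrants lay below those of VitaminA.

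Gria3 departed from this order. Its level was 28.9 ppm with ATRA, 55.9 ppm with BMS753, 284 ppm with BMS961+BMS641 and 59.4 ppm with VitaminA. The lowest quadrant of the BMS961+BMS641 section had 237 ppm, above the highest quadrant of any other section, which was 64.6 ppm with BMS753. Gria3 was seen in 38.4% of ATRA spots (34.5% to 42.5%), 46.9% of BMS753 spots (42.3% to 51.5%), 94.0% of BMS961+BMS641 spots (91.0% to 96.2%) and 63.4% of VitaminA spots (59.2% to 67.4%). The median spot of the BMS961+BMS641 section had 247 ppm, so the high level lay over most of the tissue rather than in a few spots. At the edge of that section Gria3 was seen in 92.1% of spots and in its interior in 95.7%.

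Gria3 was not alone in being widely seen in that section and less so elsewhere. Of 19783 genes, 432 (2.18%) were seen in at least as large a share of the BMS961+BMS641 spots, and 97 of them (0.490%) were also seen in no more than 63.4% of the spots of each other section. The number of genes seen in at least 90% of spots of a section and at most 65% of the spots of every other was 96 for ATRA, 0 for BMS753, 156 for BMS961+BMS641 and 84 for VitaminA. Gria3 was the only one of the 9 subunit genes among these. The epithelial markers Epcam and Cdh1 were also high in the BMS961+BMS641 section, at 921 ppm and 502 ppm, against at most 11.5 ppm and 52.7 ppm in the other sections. The other epithelial markers, Krt5, Krt8, Krt14 and Krt18, were each at 18.7 ppm or less with BMS961+BMS641. All 6 epithelial markers were seen in that section, with a summed level of 1448 ppm, against 75.2 to 110 ppm in the other sections, where 5 or 6 were seen and Krt14 was not seen with ATRA. The part of cells with these markers in the Gria3 level was not tested.

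**Figure D1:**
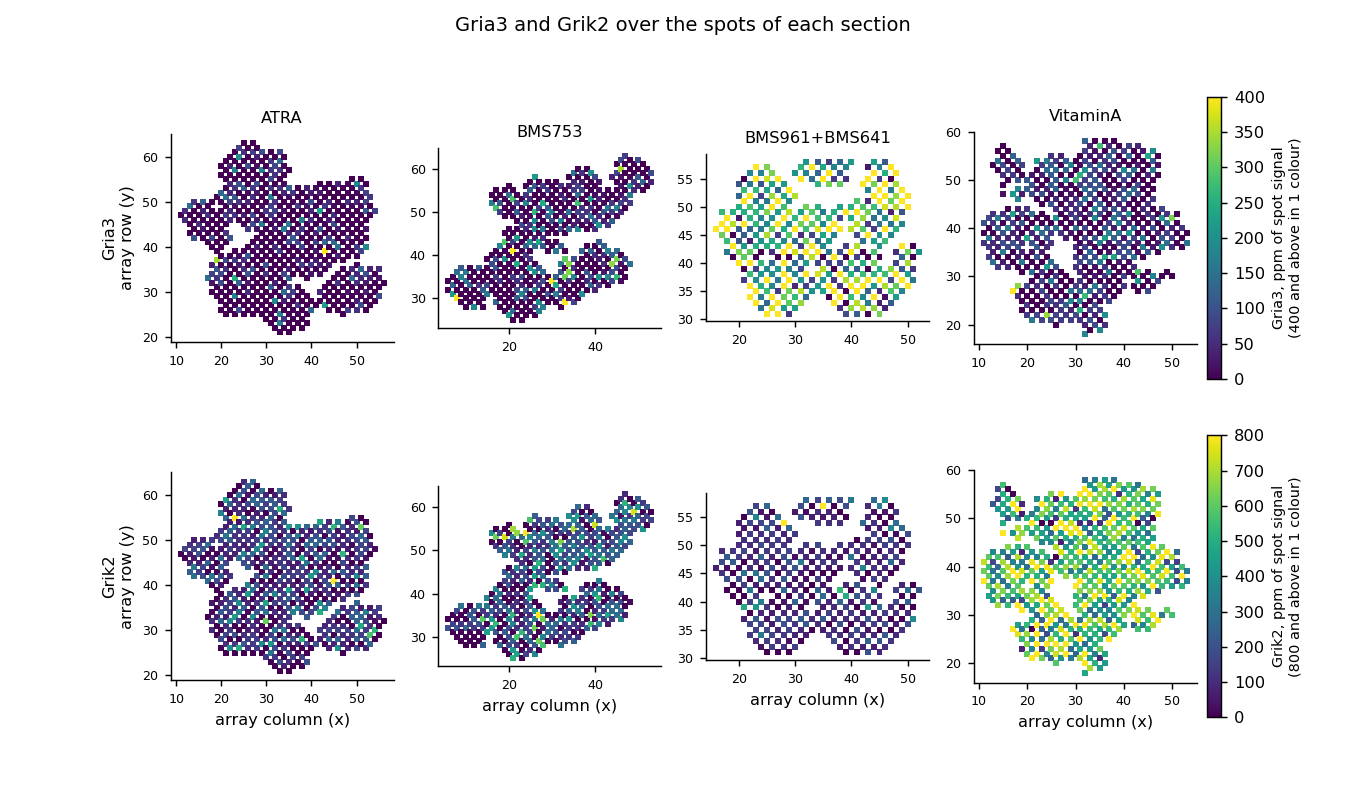
Signal of Gria3 (upper row) and Grik2 (lower row) over the spots of each section, in ppm of the spot's signal with the lowest class at 0; axes are array positions, and the top colour holds all values at or above the end of its bar. Gria3 is bright over most of the BMS961+BMS641 section, where it was seen in 94.0% of spots, and Grik2 is bright over most of the VitaminA section, where it was seen in 98.6% of spots.

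The level of Gria4, which encodes a fast-gating subunit, was 40.3 ppm with ATRA, 69.5 ppm with BMS753, 52.6 ppm with BMS961+BMS641 and 90.7 ppm with VitaminA. It was seen in 52.6%, 57.1%, 67.9% and 74.3% of spots in that order of sections. Its quadrants overlapped between each section and the next in the order of levels.

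The make-up of the AMPA family differed most in the BMS961+BMS641 section. Levels of different genes were set against each other per kb of gene span, the length from the start to the end of the gene in GRCm38.p6, since longer genes were seen in more spots. On that scale Gria1 held 42.4% of AMPA subunit signal with ATRA, 48.8% with BMS753, 14.8% with BMS961+BMS641 and 46.6% with VitaminA. Gria3 held 21.7%, 19.9%, 70.1% and 17.8% in the same order, and was the leading AMPA subunit gene only with BMS961+BMS641. Gria2 held 13.8%, 13.1%, 5.54% and 15.7%, the smallest share in each section. By tie class index, the rank of a value's run of ties in its spot, Gria2 and Gria3 each held 19.0% with VitaminA.

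Without division by span, the share of Gria3 in AMPA subunit signal was 20.3% with ATRA, 18.7% with BMS753, 68.4% with BMS961+BMS641 and 16.9% with VitaminA. Its quadrants ran from 66.2% to 71.7% with BMS961+BMS641 and from 12.6% to 23.0% over the other sections. The summed AMPA signal itself was 142 ppm with ATRA, 299 ppm with BMS753, 415 ppm with BMS961+BMS641 and 352 ppm with VitaminA.

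**Figure D2:**
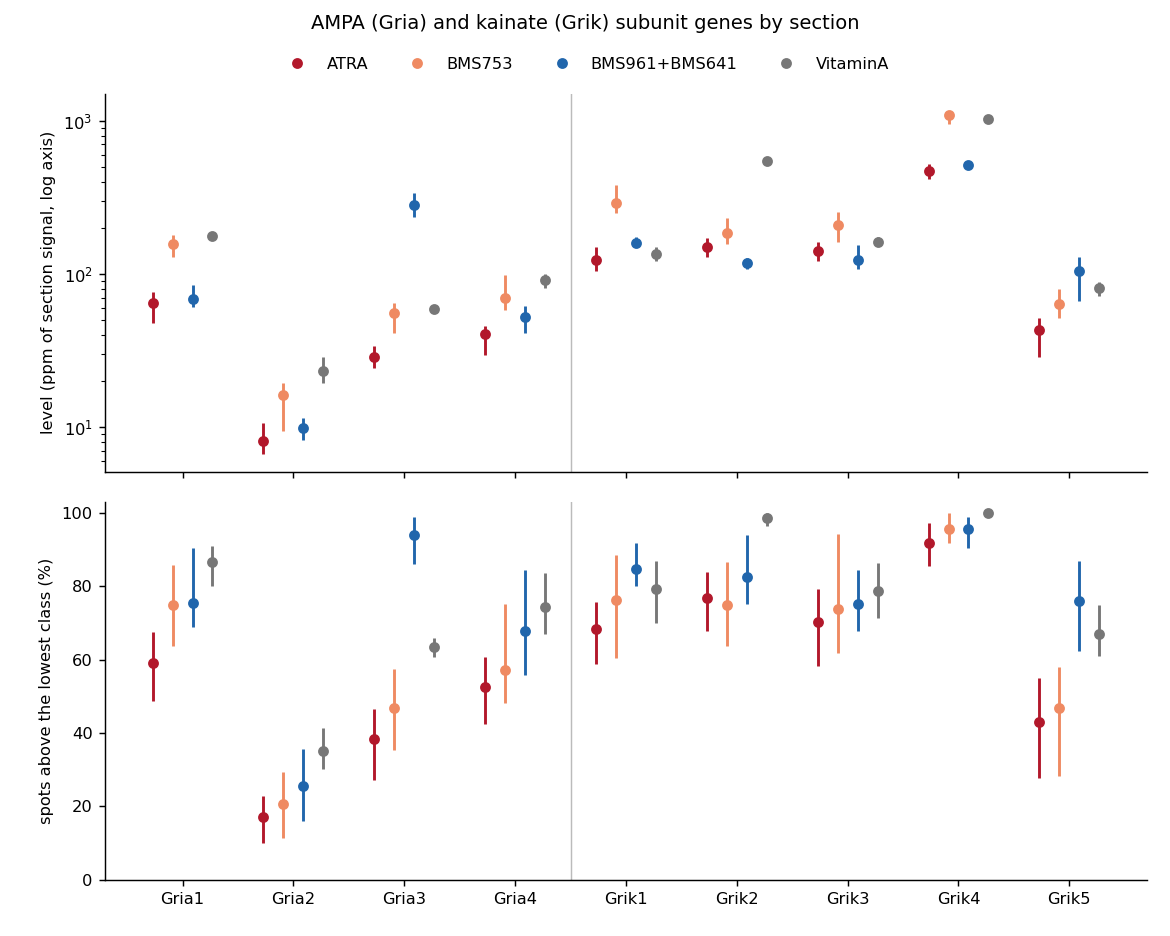
Level in ppm of the section's signal (upper panel, log axis) and percent of spots above the lowest class (lower panel) of the 9 subunit genes; points are the section values and lines run from the lowest to the highest of its 4 quadrants. Gria3 stands out with BMS961+BMS641 at 284 ppm and Grik2 with VitaminA at 550 ppm, while Gria2 is lowest in every section.

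Among the kainate subunit genes, Grik2 was far higher in the VitaminA section than elsewhere, and Grik4 was seen in nearly every spot of all sections. The level of Grik1 was 123 ppm with ATRA, 289 ppm with BMS753, 160 ppm with BMS961+BMS641 and 136 ppm with VitaminA. It was seen in 68.3%, 76.3%, 84.7% and 79.2% of spots in that order, so the BMS753 section was highest by level and not by spots. A single BMS753 spot at 14876 ppm carried 17.3% of the Grik1 signal of its section, and the level without that spot was 239 ppm.

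Grik2 encodes the principal channel-forming kainate subunit of many neurons. Its level was 150 ppm with ATRA, 185 ppm with BMS753, 118 ppm with BMS961+BMS641 and 550 ppm with VitaminA. The lowest VitaminA quadrant had 521 ppm, and the highest quadrant of any other section had 233 ppm. Grik2 was seen in 76.7% of ATRA spots (73.1% to 80.1%), 74.8% of BMS753 spots (70.7% to 78.7%), 82.5% of BMS961+BMS641 spots (78.2% to 86.2%) and 98.6% of VitaminA spots (97.2% to 99.4%). Since the gene was seen in most spots everywhere, the gap lay mainly in the amount per spot: the median spot had 115 ppm with ATRA, 174 ppm with BMS753, 102 ppm with BMS961+BMS641 and 548 ppm with VitaminA. Of 19783 genes, 156 (0.789%) were seen in at least as large a share of VitaminA spots, and 15 of those were seen in no more than 82.5% of the spots of every other section.

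Grik3, which encodes a kainate subunit of low glutamate sensitivity, had the smallest ratio of highest to lowest section level among the 9 genes. Its level was 142 ppm with ATRA, 210 ppm with BMS753, 123 ppm with BMS961+BMS641 and 161 ppm with VitaminA, and it was seen in between 70.2% and 78.8% of spots. Its quadrants overlapped between each section and the next in the order of levels.

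Grik4 and Grik5 encode the subunits that need a partner. The level of Grik4 was 470 ppm with ATRA, 1082 ppm with BMS753, 513 ppm with BMS961+BMS641 and 1027 ppm with VitaminA, and it was seen in 91.7%, 95.5%, 95.6% and 100% of spots in that order. The BMS753 and VitaminA sections overlapped by quadrants, as did the ATRA and BMS961+BMS641 sections, and the first pair lay above the second. The level of Grik5 was 43.1 ppm with ATRA, 64.0 ppm with BMS753, 105 ppm with BMS961+BMS641 and 81.1 ppm with VitaminA. Its quadrants overlapped between each section and the next in the order of levels.

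Per kb of gene span, Grik4 held the largest share of kainate subunit signal with ATRA (37.7%), BMS753 (46.6%) and VitaminA (43.8%), and 30.6% with BMS961+BMS641, where Grik5 held 40.8%. The Grik4 and Grik5 quadrants overlapped on this scale with BMS961+BMS641 and in no other section. Without division by span, Grik4 held 50.4% with BMS961+BMS641 and Grik5 10.3%, the smallest share of the family. Grik5 has the shortest span of the 9 genes, 65.8 kb. Per kb of span, Grik2 held 7.38% with ATRA, 4.88% with BMS753, 4.30% with BMS961+BMS641 and 14.4% with VitaminA. Grik1 held 10.7%, 13.4%, 10.3% and 6.28% in the same order, the lowest share being that of VitaminA. Over all 9 genes, the per-kb level was lowest for Gria2 in each section, at 0.0665 ppm per kb with ATRA, 0.132 with BMS753, 0.0807 with BMS961+BMS641 and 0.189 with VitaminA. The quadrants of Gria2 overlapped those of the next gene with BMS753 (Gria4) and with VitaminA (Gria3), and not in the other sections. Percent of spots per 100 kb of span gave another order, in which Gria2 lay above Gria4 and Grik2 in each section. With VitaminA it was 28.5 for Gria2, 19.6 for Gria4 and 14.1 for Grik2, and with ATRA Gria2 (14.0) was close to Gria4 (13.9). Ties within a spot were split by gene order, and the part of this in the order of the genes was not tested.

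**Figure D3:**
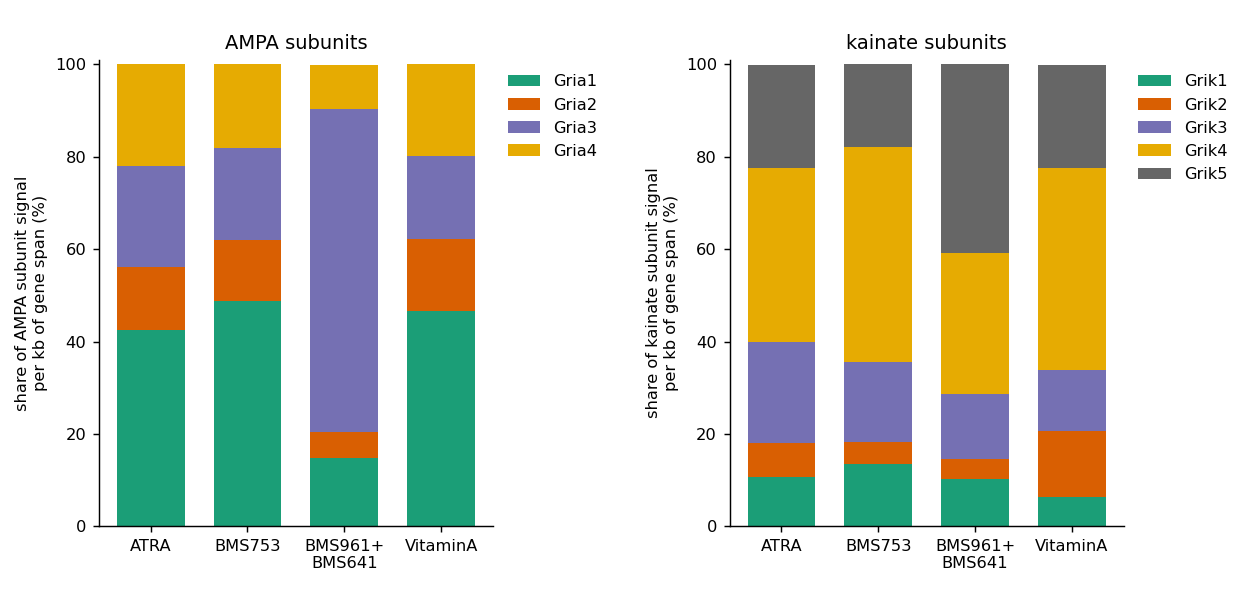
Share of AMPA subunit signal (left) and of kainate subunit signal (right) held by each gene in each section, in percent after dividing each level by the gene's span in kb; bars add to 100. Gria3 fills 70.1% of the AMPA bar with BMS961+BMS641 and 17.8% with VitaminA, and Grik2 fills 14.4% of the kainate bar with VitaminA and at most 7.38% in the other sections.

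The comparisons with VitaminA ask how an agonist of the retinoic acid receptors differs from the vitamin supplement. With ATRA all 9 subunit genes were lower than with VitaminA, although Grik1 (0.18) and Grik3 (0.16) had log2 ratios above 0 once the median of all genes was subtracted. At least 2-fold lower were 6 of them, Gria1 to Gria4, Grik2 and Grik4. The background was 22.9% of 14794 genes lower by at least 2-fold and 8.60% higher by at least 2-fold, where 0 subunit genes lay. The median log2 ratio was -1.13 over the 9 genes and -0.33 over all genes compared. This comparison and the next ones share the VitaminA section. The log2 ratio was -1.87 for Grik2, with -2.15 to -1.58 over the 16 pairs of section quadrants. It was -1.44 for Gria1 (-1.95 to -1.17) and -1.40 for Gria2 (-1.97 to -0.80). Gria3 lay just past 2-fold with a log2 ratio of -1.01, and Grik5 just short of it with -0.90. Grik1 (-0.15) and Grik3 (-0.17) had quadrants that overlapped between the sections. Spots of the ATRA section held fewer genes above the lowest class than VitaminA spots, 3388 against 4659 at the median. Over spots of shared depth the median log2 ratio was -1.08 over the 9 genes and -0.49 over all genes compared. Markers of several cell types were lower as well. Log2 ratios were below 0 for 9 of 12 neuronal markers, 6 of 6 astroglial markers compared, 6 of 8 of the oligodendrocyte lineage and 5 of 6 of mesenchyme, with medians of -0.32, -0.96, -0.65 and -1.36. With the lowest class at 0, their summed levels were 967, 97.4, 249 and 148 ppm with ATRA, against 1029, 209, 356 and 245 ppm with VitaminA, and all markers of these lists were seen in both sections. The neuronal median of -0.32 was close to the -0.33 of all genes compared. Medians of the other marker lists were -0.02 for microglia and macrophages, -0.14 for epithelium, -0.59 for progenitors, -0.76 for endothelium and -3.21 for pluripotent cells. The part of these cell types in the subunit ratios was not tested. When only the share of spots was compared, 0 of the 9 genes differed by 2-fold and the median log2 ratio was -0.49, against -0.51 over all genes. By that measure 24.4% of 19463 genes were lower by at least 2-fold and 4.31% higher. The subunit gene nearest to 2-fold was Gria2, at -0.98.

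With BMS753 the subunit genes lay close to VitaminA, apart from Grik2 and Grik1. Grik2 was lower, at 185 ppm with BMS753 against 550 ppm with VitaminA, a log2 ratio of -1.57 (-1.87 to -1.15). Grik1 was higher, at 289 ppm with BMS753 against 136 ppm with VitaminA, a log2 ratio of 1.08 (0.74 to 1.64). Without the highest spot of each gene the Grik1 ratio was 0.86, which is under 2-fold, and by share of spots it was -0.05. The counts were 1 gene lower and 1 higher by at least 2-fold, against a background of 10.0% of 15676 genes lower and 17.7% higher. The other 7 log2 ratios lay between -0.49 (Gria2) and 0.39 (Grik3), and the quadrants of each overlapped between the sections. The median was -0.18 over the 9 genes and 0.31 over all genes compared.

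With BMS961+BMS641, Gria3 was higher and Gria1, Gria2 and Grik2 were lower than with VitaminA by at least 2-fold. Gria3 had 284 ppm with BMS961+BMS641 against 59.4 ppm with VitaminA, a log2 ratio of 2.24 (1.90 to 2.60), and 3.41% of all genes compared had a ratio at least as high. Grik2 had 118 ppm with BMS961+BMS641 against 550 ppm with VitaminA, a log2 ratio of -2.22 (-2.43 to -2.02), and 4.16% of all genes compared had a ratio as low or lower. The members of the AMPA family thus differed in opposite directions, with Gria1 at -1.36 (-1.60 to -1.02) and Gria2 at -1.15 (-1.68 to -0.70).

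The background was 10.2% of 14959 genes higher by at least 2-fold, where 1 of the 9 lay, and 19.9% lower, where 3 of the 9 lay. Grik4, at 513 ppm with BMS961+BMS641 against 1027 ppm with VitaminA, lay just short of 2-fold lower, with quadrants that did not overlap between the sections. Gria4 stood at -0.78, Grik3 at -0.38, Grik1 at 0.23 and Grik5 at 0.37. The median was -0.78 over the 9 genes and -0.25 over all genes compared.

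BMS753 and ATRA were given at the same dose, so the alpha agonist could be set against the agonist of all receptors. All 9 subunit genes were higher with BMS753 than with ATRA, by log2 ratios between 0.30 (Grik2) and 1.26 (Gria1), although Grik2, Grik3 and Grik5 were lower relative to the median of all genes and Grik2 was seen in a slightly smaller share of spots (log2 ratio -0.04). Gria1, Grik1 (1.23) and Grik4 (1.20) were higher by at least 2-fold, against a background of 26.4% of 14902 genes, and 0 were lower by 2-fold, against 7.39%. The median was 0.91 over the 9 genes and 0.71 over all genes compared, so the 9 genes lay near the shift of all genes. Without the highest spot of each gene the Grik1 ratio was 1.04. Of the markers compared, 9 of 12 neuronal, 5 of 5 astroglial and 5 of 6 mesenchymal were higher with BMS753 than with ATRA. Their median log2 ratios were 0.40, 1.10 and 1.28, beside 0.71 over all genes, so the neuronal median lay below that of all genes. Medians of the other marker lists were 1.07 for progenitors, 0.85 for the oligodendrocyte lineage and 0.67 for endothelium. They were 0.58 for pluripotent cells, 0.56 for microglia and macrophages and 0.40 for epithelium. The part of these markers in the subunit ratios was not tested.

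**Figure D4:**
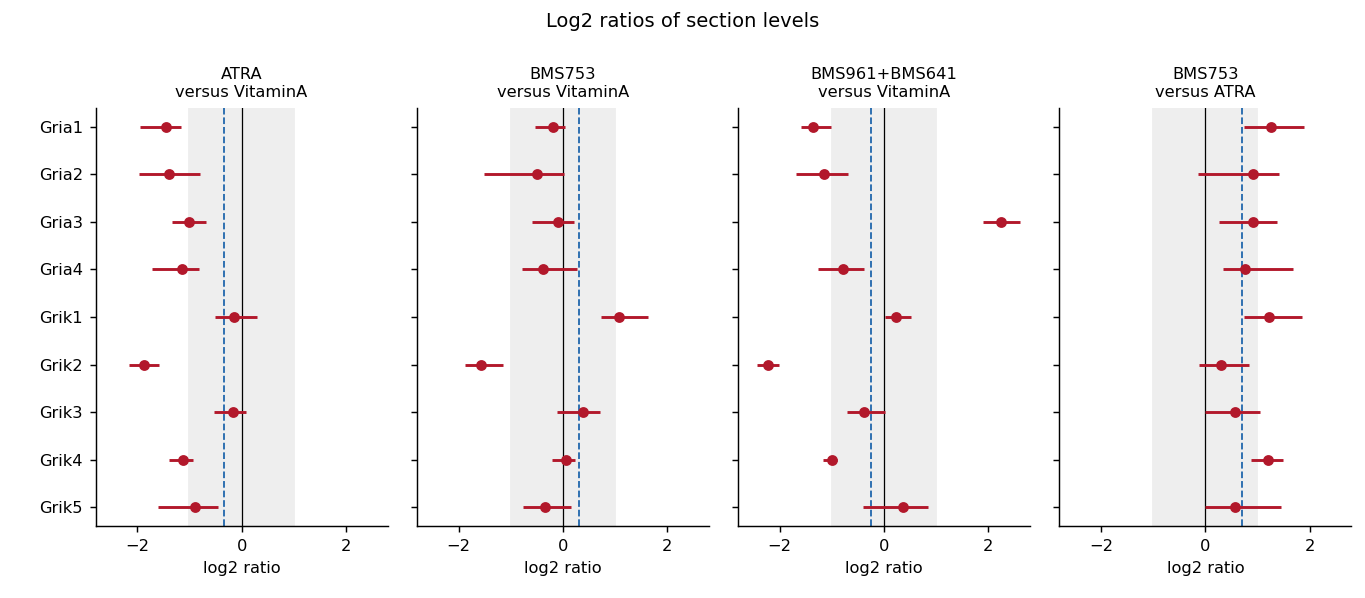
Log2 ratios of section levels for the 9 subunit genes in the 4 comparisons; points are section values, lines run over the 16 pairs of quadrants, the grey band marks less than 2-fold and the dashed line is the median of all genes compared. All 9 points lie left of 0 for ATRA versus VitaminA, with Grik1 and Grik3 right of the dashed line, and the point farthest to the right is Gria3 for BMS961+BMS641 versus VitaminA at 2.24.

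BMS961+BMS641 was given at 0.1 µM and ATRA and BMS753 at 1 µM, so these ligands differ in both dose and receptor and their ratios were not computed. Side by side, Gria3 had 28.9 ppm with ATRA, 55.9 ppm with BMS753 and 284 ppm with BMS961+BMS641. Grik2 had 150, 185 and 118 ppm in the same order.

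Within sections, the number of the 9 subunit genes seen in a spot followed how many genes of any kind were seen there. A spot held a median of 5 of them with ATRA, 6 with BMS753, 7 with BMS961+BMS641 and 7 with VitaminA. The Spearman correlation over spots between this number and the number of genes seen was 0.79 with ATRA (593 spots), 0.79 with BMS753 (469 spots), 0.80 with BMS961+BMS641 (365 spots) and 0.64 with VitaminA (552 spots), and both numbers share the depth of the spot. In the ATRA section the median was 3 genes in the third of spots with the fewest genes seen and 7 in the third with the most. All 9 were seen together in 4.05% of spots with ATRA, 5.33% with BMS753, 10.7% with BMS961+BMS641 and 12.3% with VitaminA.

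**Figure D5:**
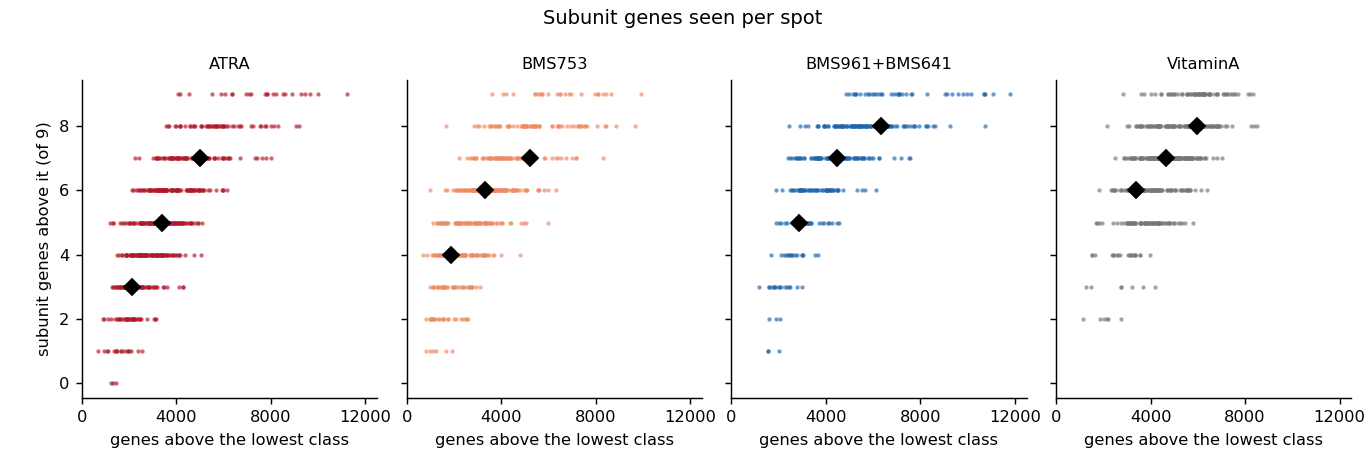
Number of the 9 subunit genes seen in a spot (vertical) against the number of all genes above the lowest class in that spot (horizontal); points are spots and diamonds are the medians of equal groups of spots with few, medium and many genes seen. In each section the diamonds climb, from 3 to 7 of 9 genes with ATRA and from 6 to 8 with VitaminA.

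At least 1 AMPA subunit gene was seen in 84.8% of ATRA spots, 91.5% of BMS753 spots, 97.3% of BMS961+BMS641 spots and 98.4% of VitaminA spots. In most of them Gria2 was not among those seen. Another AMPA subunit gene was seen without Gria2 in 67.6% of ATRA spots, 70.8% of BMS753 spots, 71.8% of BMS961+BMS641 spots and 63.4% of VitaminA spots. This too moved with depth: Gria2 was seen in 7.07% of the ATRA spots with the fewest genes and 32.3% of those with the most, and in 22.8% and 50.0% of the matching VitaminA spots. Depth therefore limits what these shares say of Gria2 in a spot.

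The subunit genes showed little shared pattern over spots. The median Spearman correlation over the 36 pairs, with each spot's scale divided out, was 0.03 with ATRA, 0.06 with BMS753, 0.02 with BMS961+BMS641 and 0.04 with VitaminA, and the highest was 0.22, for Gria1 and Grik4 with BMS961+BMS641. Likeness of neighbouring spots was mostly low. With the lowest class at 0, Moran's I of the 9 genes was between -0.03 and 0.11, beside a median of 0.01 to 0.03 over the genes seen. The highest values within their sections were those of Grik1 with ATRA (0.08), Grik3 and Grik4 with BMS753 (0.11 each), Gria4 with BMS961+BMS641 (0.08) and Grik2 with VitaminA (0.06), each between the 92.2 and 94.9 percentiles of the genes seen in that section. On the deposited values the same genes lay lower, between the 58.8 percentile (Grik4 with BMS753) and the 85.6 percentile (Gria4 with BMS961+BMS641). Moran's I of the number of genes seen per spot was 0.33 to 0.54. By mean correlation over the 4 sections, Nbas and Prdm11 were the genes most like Grik4, with 0.30 each. For Nbas the values were 0.30 with ATRA, 0.48 with BMS753, 0.42 with BMS961+BMS641 and -0.01 with VitaminA. With the lowest class at 0, Plbd1 also had a mean of 0.30 with Grik4. The correlation of Grik4 with the number of genes seen per spot was 0.17, 0.22, 0.29 and 0.00 in the same order. The part of depth in these likenesses was not tested. No other subunit gene reached a mean of 0.3 with any gene.

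Long genes were seen in more spots. The span of the 9 genes ran from 65.8 kb (Grik5) to 696 kb (Grik2) with a median of 319 kb, against 18.4 to 19.7 kb for the genes listed in a section. Over all genes, the Spearman correlation between span and percent of spots was 0.803 with ATRA, 0.837 with BMS753, 0.799 with BMS961+BMS641 and 0.834 with VitaminA. The part of span in the order of the subunit genes and in their ratios between sections was not tested. The shares and medians of all genes set beside them were not matched for span.

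Of the 17 genes for auxiliary subunits of AMPA and kainate receptors, 16 reached the level needed for a ratio. With ATRA 2 were higher and 4 lower than with VitaminA by at least 2-fold, against 8.60% and 22.9% of all genes, and the median of -0.34 was close to the -0.33 of all genes compared. Cacng3, a transmembrane AMPA receptor regulatory protein, had 370 ppm with ATRA against 19.3 ppm with VitaminA, a log2 ratio of 4.19, and was seen in 91.4% of ATRA spots against 27.9% of VitaminA spots. With BMS753 it had 16.5 ppm, a log2 ratio of -4.40 against ATRA, and with BMS961+BMS641 18.6 ppm. Neto2, a partner of kainate receptors, had 133 ppm with ATRA and 60.8 ppm with BMS961+BMS641 against 28.1 ppm with VitaminA. Most of the list lay the other way, since 12 of the 16 genes had a log2 ratio below 0 for ATRA versus VitaminA.

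Olfm3 was lower than with VitaminA with ATRA (log2 ratio -1.30) and with BMS961+BMS641 (-1.43). Shisa9 and Gsg1l, which modulate AMPA receptor gating, were lower with ATRA, at -1.23 and -1.20. With BMS753 the auxiliary list had 1 gene higher and 0 lower than with VitaminA by at least 2-fold, against 17.7% and 10.0% of all genes, and a median of 0.03. That gene, C1ql3, had most of its level in the lowest class and was seen in 5.97% of BMS753 spots and 2.36% of VitaminA spots. With BMS961+BMS641, 1 was higher and 2 lower, against 10.2% and 19.9% of all genes, with a median of -0.42. Against ATRA, BMS753 had 4 higher and 2 lower, against 26.4% and 7.39% of all genes, among them Shisa9 at 1.78 and Neto2 at -1.38.

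Of 28 genes for scaffolds and trafficking, 24 or 25 could be compared. Nptx2, a pentraxin that gathers AMPA receptors at synapses, and Cpt1c, which assists their delivery to the surface, were lower than with VitaminA in all ligand sections. Nptx2 had 23.0 ppm with ATRA, 23.5 ppm with BMS753 and 52.9 ppm with BMS961+BMS641 against 183 ppm with VitaminA, and Cpt1c had 20.3, 20.4 and 6.15 ppm against 108 ppm. These comparisons share the VitaminA section. Grip2, whose product binds the tails of GRIA2 and GRIA3, had 320 ppm with BMS961+BMS641 against 48.1 ppm with VitaminA, a log2 ratio of 2.71. It was seen in 92.1% of BMS961+BMS641 spots and 35.9% of VitaminA spots.

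Epb41l1, which links AMPA receptors to actin, stood at 1.80 and the RNA editing enzyme gene Adar at 1.64 in that comparison. Porcn (3.14) and the scaffold gene Dlgap1 (1.80) were higher with ATRA than with VitaminA, and Shank1 was lower (-1.07). The counts at 2-fold were 2 higher and 3 lower for ATRA, 0 and 2 for BMS753, and 4 and 5 for BMS961+BMS641, each against VitaminA. Over all genes the shares higher and lower were 8.60% and 22.9% for ATRA, 17.7% and 10.0% for BMS753, and 10.2% and 19.9% for BMS961+BMS641, so the 5 of 25 genes lower with BMS961+BMS641 and the 3 of 25 with ATRA lay near or below the background share. Against ATRA, BMS753 had 2 higher, among them Abhd6 (1.52), and 2 lower, Porcn (-3.19) and Dlgap1 (-1.79), where 26.4% of all genes were higher and 7.39% lower.

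The other glutamate receptor families gave a setting for the 9 genes. Of 8 NMDA and delta subunit genes compared, 0 were higher than with VitaminA by 2-fold in any ligand section, and 3 were lower with ATRA, 2 with BMS753 and 2 with BMS961+BMS641, beside 22.9%, 10.0% and 19.9% of all genes. Grin2d was lower with ATRA (-1.60) and with BMS961+BMS641 (-1.36). Of the 8 metabotropic receptor genes, Grm5 (2.55) and Grm8 (1.02) were among those higher with BMS961+BMS641 than with VitaminA and Grm4 (-2.47) and Grm3 (-1.41) were lower. Grm5 had 897 ppm with BMS961+BMS641 against 152 ppm with VitaminA.

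With ATRA, Grm3 (-1.95) was lower than with VitaminA, and with BMS753 Grm4 was lower (-1.88). Grm3 (1.13) was higher with BMS753 than with ATRA. Among 12 genes of glutamate release and transport, Slc1a1, a neuronal glutamate transporter, was lower than with VitaminA in all ligand sections, at 36.5 ppm with ATRA, 87.8 ppm with BMS753 and 45.5 ppm with BMS961+BMS641 against 319 ppm with VitaminA. Of that list 3 were lower with ATRA, 3 with BMS753 and 6 with BMS961+BMS641 by at least 2-fold, and 0, 2 and 0 were higher. Of all genes 22.9%, 10.0% and 19.9% were lower and 8.60%, 17.7% and 10.2% higher in these comparisons, so the count with ATRA was near the background and the 6 of 12 with BMS961+BMS641 above it. Against ATRA, BMS753 had 4 of 11 higher and 2 lower, beside 26.4% and 7.39% of all genes.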

How the data were processed

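Spatial libraries were made from cryosections on barcoded poly-T arrays, per the labels' protocols. The authors deposited a quantile-normalised signal for every gene in every spot. Tested on the values, all spots of a section shared a single set of ranked values and differed by a spot-specific multiplier. The genome build is mm9, per the submitters' processing notes. The sources used here do not give the aligner, the way molecules were counted or the spot filter. Counts were not used here, so the depth is unknown.

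A gene's level was its mean signal over spots in ppm of the section sum. Log2 ratios used a pseudocount of 1 ppm, which understates changes of low genes. A gene entered a comparison when either section had 5 ppm of it or more. Ranges run over 16 pairs of section quadrants and describe variation within sections only. In all but 1 spot of each section, every 0 came before the lowest positive run in gene order, which is why that run was read as ties. Interiors are spots with all 8 grid neighbours. Gene spans and promoter windows come from RefSeq (GRCm38.p6), and no coordinates were converted between builds.

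The 9 genes were always named. From the other lists, genes were named at 2-fold or more, with at least 20 ppm and no overlap between quadrants, at most 3 in each direction. Some genes that this rule picked are not reported here. A gene most alike in pattern was named at a mean correlation of at least 0.3. The genes and lists were chosen with earlier results of these data known. The steps were tested on simulated data. Computations used scipy 1.17.1, pandas 2.3.3, numpy 2.4.6, matplotlib 3.10.9 and Python 3.11.15. Another 14 settings, 2 of them (tie class index and leaving out the highest spot) chosen after seeing the data, changed the scaling, filters, summary and spots.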

Additional observations from a re-analysis of the deposited data

How the results depend on the processing

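No paired analysis was possible because each treatment has 1 section. Of 503 log2 ratios of single subunit genes recomputed under 14 alternatives, 427 moved by less than the SD over quadrant pairs, 75 moved by more and 1 changed sign from a 2-fold difference. That was Grik1 for BMS753 versus VitaminA, at -0.05 by share of spots. Sign changes of ratios under 2-fold are counted within the 427 and the 75. The alternatives that changed only the filter (at least 20 ppm, or none) leave the ratio of a compared gene as it was. Their values are among the 427 and could not move. Of 64 shares of AMPA signal, 55 moved by less than the spread of the share over quadrants and 9 by more. The 55 include the shares with the lowest class at 0, which had almost no room to move. The Gria genes had almost no signal in that class.

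For the median log2 ratio of the 9 genes, ATRA versus VitaminA gave -0.80 centred on all genes, -0.87 with a pseudocount of 10 ppm, -1.29 without the highest and lowest 5% of spots, -0.49 by share of spots and -0.95 by tie class index, the rank of a value's run of ties in its spot. BMS753 versus VitaminA gave -0.49 centred, -0.37 by share of spots, 0.00 at shared depth and 0.02 by tie class index. BMS961+BMS641 versus VitaminA gave -0.52 centred, -0.07 by share of spots and -0.46 by tie class index. BMS753 versus ATRA gave 0.20 centred, 0.66 with a pseudocount of 10 ppm and 0.12 by share of spots. Over all genes, the medians by share of spots were -0.51, -0.35, -0.09 and 0.16 for these comparisons in the same order. By tie class index they were -0.52, 0.17, -0.38 and 0.68.

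The number of subunit genes at least 2-fold apart was 0 by share of spots in all 4 comparisons. Of all genes, 4.31% were higher and 24.4% lower for ATRA versus VitaminA by that measure, and 3.28% and 17.2% for BMS753 versus VitaminA. For BMS961+BMS641 versus VitaminA they were 8.24% and 13.0%, and for BMS753 versus ATRA 10.6% and 6.67%. Centred on all genes, the number of subunit genes was 3 for ATRA versus VitaminA, 1 for BMS753 versus VitaminA and 0 for BMS753 versus ATRA. The shares of all genes higher and lower were then 12.1% and 14.6%, 9.06% and 14.8%, and 6.77% and 14.6%. For BMS753 versus VitaminA it was 1 with interior spots, at shared depth, by tie class index and without the highest spot of each gene. For BMS753 versus ATRA it was 5 with the lowest class at 0 and 5 without the highest and lowest 5% of spots. By share of spots the ratio has a ceiling at 100%, and the cause of the other changes was not tested. Apart from share of spots, the log2 ratio of Gria3 for BMS961+BMS641 versus VitaminA stayed between 1.98 and 2.49. That of Grik2 in the same comparison stayed between -2.32 and -1.94. The sections are single, so no alternative bears on variation between organoids.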
